A study of Mus musculus with 8 samples.

Results

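The 6 genes described here are *Nos2*, *Gch1*, *Ass1*, *Odc1*, *Acod1* and *Ido1*. They encode enzymes through which activated macrophages are known to make nitric oxide from arginine, to make polyamines and itaconate, and to break down tryptophan. They were chosen by symbol out of 55416 genes in the count tables, and each symbol matched 1 Ensembl mouse identifier. All 6 passed the filter on low counts that left 18560 genes for testing.

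The data were RNA-seq read counts from the lungs of 8 female C57BL/6 mice, 6 to 8 weeks old. The methods of the study name the strain as C57BL/6J. There was 1 library per mouse, from 1 side of the lung. The 3 control mice (numbers 1, 2 and 4) received the solvent dimethyl sulfoxide through the tail vein and then saline into the peritoneum. The 3 mice of the LPS group (1, 6 and 7) received bacterial lipopolysaccharide at 35 mg/kg into the peritoneum, and a solvent injection is not described for them. The 2 mice of the dual-treatment group (2 and 5) received YW3-56, an inhibitor of protein arginine deiminases, at 10 mg/kg in dimethyl sulfoxide shortly before the same dose of LPS. Lungs were collected 24 h after LPS. Total counts were 19061949, 19796242 and 20527836 in the control mice. Libraries of the LPS group held 20818501, 19379911 and 19279724 counts. Those of the dual-treated mice held 19875939 and 20908608. Values per mouse are TMM-normalized CPM, counts scaled to a common library size by edgeR, and are given in the order of the mouse numbers above.

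Inducible nitric oxide synthase uses the amino acid arginine and needs the cofactor tetrahydrobiopterin, and its product citrulline can be turned back into arginine. Ornithine is the starting point of the polyamines, while itaconate is drawn from the citric acid cycle and kynurenine from tryptophan.

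The tissue was whole lung and no cells were sorted, so the 15 macrophage markers examined (among them *Adgre1*, *Cd68*, *Csf1r* and the *C1q* genes) show only that macrophage transcripts were present. Their summed level was 660.3, 768 and 680.0 CPM in the control mice. It was 526, 682 and 710.4 CPM in the LPS group. It was 2024 and 1348 CPM in the dual-treatment group, above every mouse of the other groups. The most abundant marker was *Fabp4*, which is also known in fat and capillary endothelial cells, with 19.3% of the summed level over all mice. *Fabp4* was at 741 and 38.2 CPM in the dual-treated mice. Without it the summed levels were 624, 564 and 652 CPM in the control mice, 469, 549 and 518 CPM in the LPS group, and 1283 and 1309.7 CPM in the dual-treatment group. No macrophage marker was at 0 in every library. In bulk tissue, fewer cells of a type and less RNA per cell cannot be told apart.

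Libraries of LPS mice 6 and 7 stood apart from the rest. The summed level of 11 squamous epithelium genes was 829 and 2179 CPM in these mice, against 36.2 CPM in LPS mouse 1. It was 51.3, 39.4 and 43.5 CPM in the control mice, and 53.4 and 78.7 CPM in the dual-treatment group. The most abundant of these genes, *Krt13*, a keratin of squamous epithelium, was at 0.297, 286 and 887 CPM in the LPS group. The summed level of 11 skeletal muscle genes was 361 and 735 CPM in LPS mice 6 and 7 and 56.7 CPM in LPS mouse 1. It was 26.9, 82.8 and 44.2 CPM in the control mice, and 16.7 and 15.8 CPM in the dual-treatment group, with *Mb*, the gene of myoglobin, as the most abundant gene. No gene of either list was at 0 in every library. Among tested genes, 8 of 10 squamous and 9 of 9 muscle genes were called higher in LPS against control. With LPS mice 6 and 7 left out, 0 of 6 squamous and 0 of 6 muscle genes were called higher, and 2 squamous genes were called lower. Dual-treated lungs had 7 squamous and 8 muscle genes called lower and 0 higher than LPS lungs. With those 2 LPS mice left out, dual treatment against LPS gave 2 squamous genes higher and 0 lower, and 1 muscle gene higher and 3 lower. Compared with control they had 0 squamous genes called, and 1 muscle gene (*Mb*) was called lower and 0 higher. In the fit without LPS mice 6 and 7 these were 1 squamous gene higher and 1 lower, and 0 muscle genes higher and 2 lower. Counts of members are given with and without these mice.

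The 3 groups were compared in 1 fit with edgeR's quasi-likelihood test, and a gene was called higher or lower when its Benjamini-Hochberg adjusted p over 18560 genes was under 0.05. LPS against control asks how lungs differed after endotoxin, and dual treatment against LPS how lungs given YW3-56 as well differed. Dual treatment against control asks what still differed from control lung. A solvent injection is not described for the LPS group. The solvent therefore cannot be told apart from LPS in LPS against control, or from YW3-56 in dual treatment against LPS. In the paper's survival experiment, median survival after LPS alone was shorter than 24 h and was longer with YW3-56. The part of survival until sampling was not tested. The comparisons share libraries and 1 estimate of the spread, so they are not independent of each other. Where 0 genes of a list are given as called over all 8 libraries, edgeR at an unadjusted p under 0.05 and DESeq2 also gave 0, unless other counts stand beside it.

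In LPS against control all 6 members were called higher, where 32.6% of the tested genes were called higher and 33.9% lower. In dual treatment against LPS 5 were called lower (*Nos2*, *Gch1*, *Ass1*, *Odc1* and *Ido1*) and 0 higher, where 27.4% of the tested genes were called lower and 31.7% higher, and *Acod1* was not called. Compared with control, dual-treated lungs had 3 members called higher (*Nos2*, *Gch1* and *Acod1*) and 0 lower, where 9.13% of the tested genes were called higher and 7.02% lower. With LPS mice 6 and 7 left out, the members called higher were 6 in LPS against control, where 27.1% of the tested genes were called higher, and 3 in dual treatment against control, where 10.1% were. All 6 were then called lower in dual treatment against LPS, where 23.2% of the tested genes were called lower. The balance of all called genes moved with the scaling. In LPS against control 49.0% of the called genes were higher with TMM and 35.6% with library size only. For dual treatment against LPS these shares were 53.6% and 71.0%. None of the 6 members reversed a called direction under any scaling tried.

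**Figure D1:**
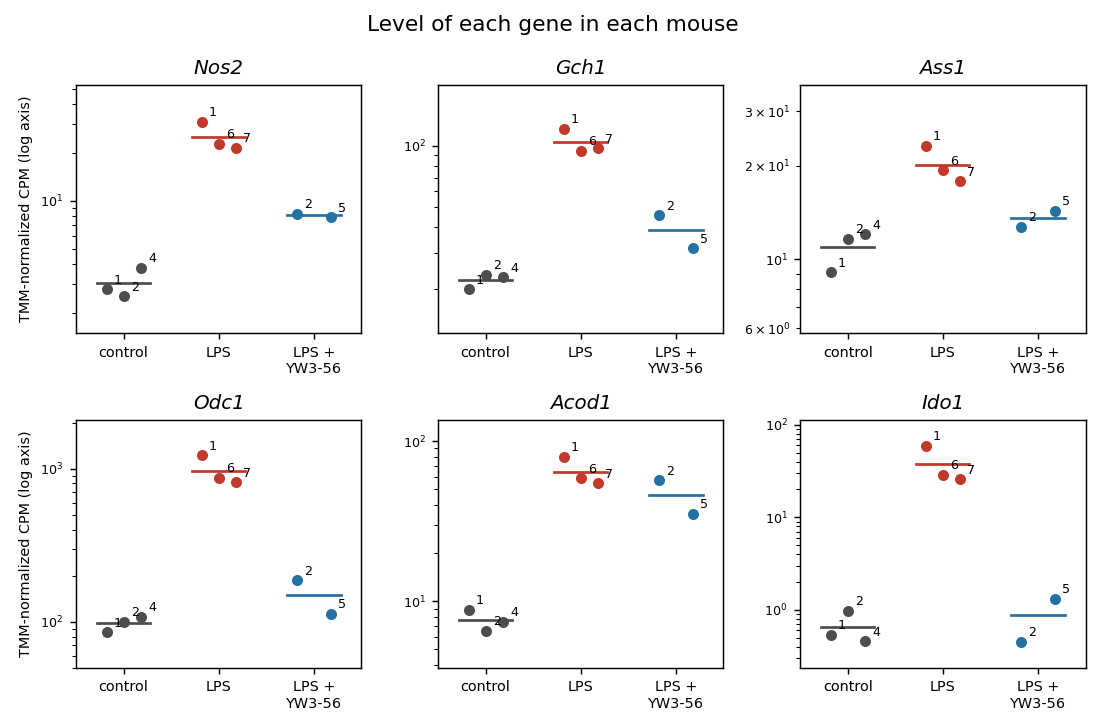
Level of each of the 6 genes in TMM-normalized CPM (log axis) in each mouse, by group, with the mouse number beside each point and the group mean as a line. *Ido1* in the dual-treatment group (0.454 and 1.32 CPM) spans the control values, and *Acod1* there (57.1 and 35.1 CPM) has mouse 2 inside and mouse 5 below the range of the LPS group.

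*Nos2* (ENSMUSG00000020826, chr11:78811613-78851080 of GRCm39, plus strand) encodes the inducible nitric oxide synthase. It was at 2.79, 2.53 and 3.82 CPM in the control mice. In the LPS group it was at 31.1, 22.7 and 21.4 CPM. In the dual-treatment group it was at 8.30 and 7.90 CPM. The 3 groups did not overlap, and the dual-treated mice lay between the others and close to each other. *Nos2* rose in LPS against control by 3.04 on the log2 scale (standard error 0.21, adjusted p = 2.9e-06), in 3 of 3 LPS mice above every control mouse. It fell in dual treatment against LPS, with a log2 change of -1.63 (standard error 0.23, adjusted p = 0.000271). It was also higher in dual treatment than in control, with a log2 change of 1.41 (standard error 0.23, adjusted p = 0.00350).

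*Gch1* (ENSMUSG00000037580, chr14:47391346-47426915, minus strand) encodes GTP cyclohydrolase, the enzyme that starts tetrahydrobiopterin synthesis. It was at 19.9, 23.4 and 22.8 CPM in the control mice. The LPS group had 121, 94.9 and 97.2 CPM. The dual-treatment group had 45.9 and 31.5 CPM, between the other groups and without overlap. *Gch1* rose in LPS against control (log2 change 2.25, standard error 0.16, adjusted p = 3.1e-06) and fell in dual treatment against LPS (log2 change -1.43, standard error 0.18, adjusted p = 0.000131). Its rise in dual treatment against control (log2 change 0.81, standard error 0.17, adjusted p = 0.0125) depended on dual-treated mouse 2. Without that mouse the log2 change was 0.49 with an adjusted p of 0.11, the highest of 16 other settings, of which the lowest was 0.000171.

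*Ass1* (ENSMUSG00000076441, chr2:31352181-31410862, plus strand) encodes argininosuccinate synthase, which starts the return of citrulline to arginine. It was at 9.10, 11.6 and 12 CPM in the control mice. It reached 23.2, 19.4 and 17.9 CPM in the LPS group. It was at 12.8 and 14.4 CPM in the dual-treatment group. Control and LPS mice did not overlap, and the dual-treated mice lay above all control mice and below all LPS mice. The changes were small beside those of *Nos2* on the log2 scale. *Ass1* rose in LPS against control by 0.88 (standard error 0.16, adjusted p = 0.000864), and dual treatment against control missed the threshold (log2 change 0.31, adjusted p = 0.272). In dual treatment against LPS its log2 change was -0.57 (standard error 0.18, adjusted p = 0.0200). That call was lost without LPS mouse 1 (-0.47, adjusted p = 0.0538), without dual-treated mouse 2 (-0.51, adjusted p = 0.0874) and with scaling by library size only (-0.24, adjusted p = 0.241), and over all 16 other settings its adjusted p ran from 0.00419 to 0.241.

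The macrophage markers were higher in the dual-treatment group, with 13 of 15 called higher and 0 lower in dual treatment against LPS. Their median log2 change was 1.53, where the median of all tested genes was 0.06. Without LPS mice 6 and 7, 10 were called higher and 0 lower. Compared with control, 9 macrophage markers were called higher in dual treatment and 1 was called lower (*Mertk*), with a median of 1.67 beside 0.00 for all tested genes. In LPS against control 2 were called higher and 6 lower, with a median of -0.18 beside -0.01, and 2 higher and 4 lower without LPS mice 6 and 7. *C1qb*, a complement component made by macrophages, was at 35.1, 27.2 and 38.3 CPM in the control mice, 49.4, 50.4 and 42.3 CPM in the LPS group and 184 and 169 CPM in the dual-treatment group. Of the 6 members, 5 were called lower between the same 2 groups, and the part of macrophage abundance in their levels was not tested.

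*Odc1* (ENSMUSG00000011179, chr12:17594383-17601507, plus strand) encodes ornithine decarboxylase, the entry to polyamine synthesis from ornithine. It was at 85.6, 100.1 and 108 CPM in the control mice. The LPS group had 1219, 873 and 818 CPM. The dual-treatment group had 186 and 113 CPM. Both dual-treated mice were above the control mice, by little for mouse 5, and far below the LPS mice. *Odc1* rose in LPS against control by 3.31 on the log2 scale (standard error 0.23, adjusted p = 2.7e-06), and its change in dual treatment against LPS was -2.70 (standard error 0.26, adjusted p = 3.5e-05). Dual treatment against control missed the threshold (log2 change 0.61, adjusted p = 0.107), and passed it without dual-treated mouse 5 (0.90, adjusted p = 0.0204) and with no filter on low counts (0.61, adjusted p = 0.0172). Over the 16 other settings its adjusted p ran from 0.0172 to 0.731.

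*Acod1* (ENSMUSG00000022126, chr14:103284413-103294009, plus strand) encodes the enzyme that makes itaconate from cis-aconitate. It was at 8.86, 6.52 and 7.45 CPM in the control mice. It was at 80.0, 58.6 and 54.5 CPM in the LPS group. It was at 57.1 and 35.1 CPM in the dual-treatment group. All 5 mice given LPS lay above the control mice, and the LPS and dual-treatment groups overlapped. *Acod1* rose in LPS against control (log2 change 3.08, standard error 0.23, adjusted p = 3.7e-06) and in dual treatment against control (log2 change 2.60, standard error 0.24, adjusted p = 0.000186). Dual treatment against LPS was not called (log2 change -0.48, standard error 0.23, adjusted p = 0.0989). It passed the threshold without dual-treated mouse 2 (-0.90, adjusted p = 0.0112), without LPS mice 6 and 7 (-0.80, adjusted p = 0.0418) and with no filter on low counts (-0.45, adjusted p = 0.0417). Over the 16 other settings its adjusted p ran from 0.0112 to 0.593.

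Neutrophil transcripts were high in the same 5 mice as *Acod1*. *Nos2*, *Gch1*, *Ass1* and *Odc1* were also above every control mouse in these 5 mice. The summed level of 13 neutrophil markers was 350.2, 277 and 199 CPM in the control mice. It was 2824, 3704 and 2543 CPM in the LPS group, and 2099 and 2597 CPM in the dual-treatment group, with *S100a9*, a calcium-binding protein of neutrophils, as the most abundant gene. All 13 were called higher in LPS against control, with a median log2 change of 3.16 beside -0.01 for all tested genes. Compared with control, 8 were called higher and 0 lower in dual treatment, with a median of 2.95 beside 0.00. Between dual treatment and LPS 4 were higher and 5 lower, with a median of -0.55 beside 0.06. No neutrophil marker was at 0 in every library. Without LPS mice 6 and 7 these counts were 12 higher and 0 lower, 8 higher and 0 lower, and 1 higher and 4 lower. The part of neutrophil abundance in the level of *Acod1* or of any other member was not tested.

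*Ido1* (ENSMUSG00000031551, chr8:25074150-25087025, minus strand) encodes indoleamine 2,3-dioxygenase, which opens the kynurenine route of tryptophan breakdown. It was at 0.538, 0.986 and 0.460 CPM in the control mice, or 11, 21 and 10 counts. It was at 59.3, 28.8 and 25.7 CPM in the LPS group, or 999, 498 and 460 counts. It was at 0.454 and 1.32 CPM in the dual-treatment group, or 10 and 30 counts. The dual-treated mice overlapped the control mice and lay far below all LPS mice. *Ido1* had the largest log2 change of the 6 members in LPS against control (log2 change 5.83, standard error 0.48, adjusted p = 7.0e-06). In dual treatment against LPS its log2 change was -5.40 (standard error 0.56, adjusted p = 4.7e-05). That change was -6.38 without dual-treated mouse 5 and -4.86 without dual-treated mouse 2. Without LPS mice 6 and 7 the log2 change in LPS against control was 6.48, and without LPS mouse 1 it was 5.36. Dual treatment against control was not called (log2 change 0.42, standard error 0.62, adjusted p = 0.701), and its sign depended on 1 mouse, with 0.96 without dual-treated mouse 2 and -0.57 without dual-treated mouse 5. Over the 16 other settings that adjusted p ran from 0.453 to 0.898.

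**Figure D2:**
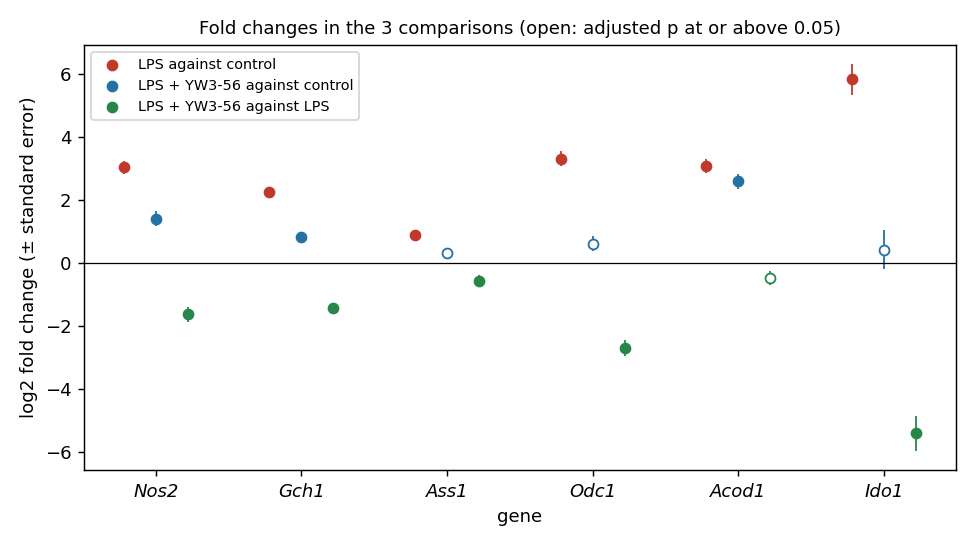
The log2 fold change of each gene with its standard error in the 3 comparisons, from 1 fit over 3 control, 3 LPS and 2 dual-treated mice, with open points for an adjusted p at or above 0.05. *Ido1* has the largest difference between dual treatment and LPS (-5.40), and *Acod1* has an open point there (-0.48).

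Levels of different genes were compared as CPM per kilobase of exon. The length was that of all exons of a gene in GENCODE M39, merged over its transcripts. The order of the genes depends on this choice of length. In the control mice *Odc1* was highest at 17.3 ± 1.99 (SD, n = 3), and *Ido1* was lowest at 0.362 ± 0.155. Between them stood *Gch1* at 3.29, *Ass1* at 2.92, *Acod1* at 2.90 and *Nos2* at 0.686. The neighbours *Gch1* and *Ass1*, and *Ass1* and *Acod1*, overlapped in this group. In the LPS group *Odc1* stayed highest at 171 ± 38.4 (SD, n = 3), and *Ido1* stood between *Acod1* and *Gch1* at 20.7 ± 10.2. *Acod1* at 24.5, *Ido1* and *Gch1* at 15.6 each overlapped the next in that order, as did *Nos2* at 5.64 and *Ass1* at 5.39.

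In the dual-treatment group the order was *Odc1* at 26.4 ± 9.23 (SD, n = 2) and *Acod1* at 17.6 ± 5.93 CPM per kilobase, which overlapped. *Gch1* at 5.78, *Ass1* at 3.63, *Nos2* at 1.83 and *Ido1* at 0.485 followed without overlap. *Acod1* over *Ido1* was 11.5, 4.61 and 11.3 in the control mice and 0.941, 1.42 and 1.48 in the LPS mice. It was 87.7 and 18.6 in the dual-treated mice, the highest of the 8 mice. *Gch1* over *Nos2*, the other ratio measured, was 4.73, 6.12 and 3.95 in the control mice. It was 2.59, 2.77 and 3.02 in the LPS mice and 3.66 and 2.64 in the dual-treated mice. The LPS and dual-treated mice overlapped each other, and all of them lay below every control mouse.

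**Figure D3:**
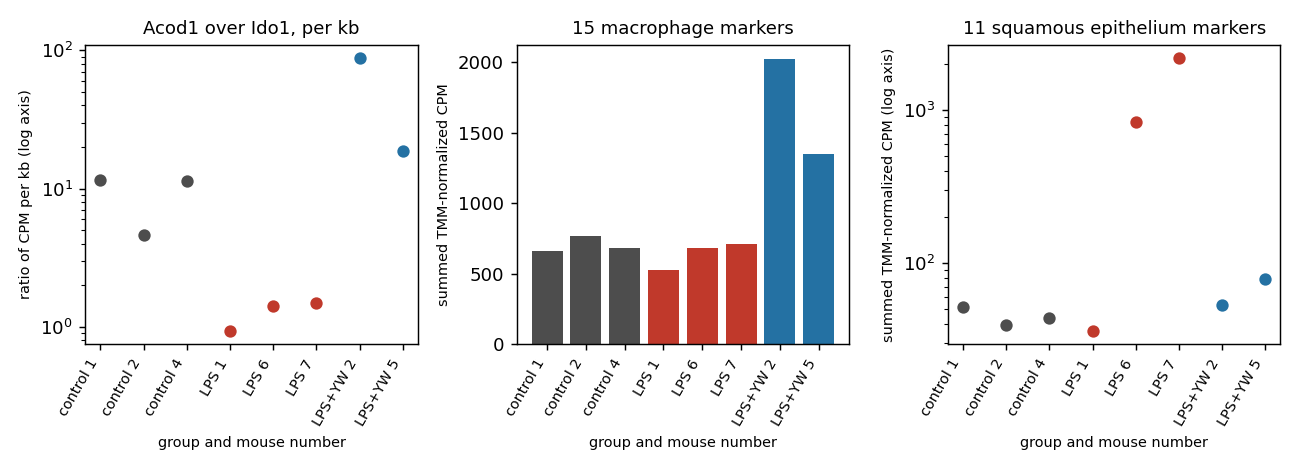
For each mouse, the ratio of *Acod1* to *Ido1* in CPM per kilobase (log axis), the summed TMM-normalized CPM of 15 macrophage markers (bars from 0) and that of 11 squamous epithelium genes (log axis), with points and bars colored by group. The dual-treated mice are highest in the ratio (87.7 and 18.6) and in the macrophage sum (2024 and 1348 CPM), and LPS mice 6 and 7 in the squamous sum (829 and 2179 CPM).

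LPS mouse 1 was the highest of its group in 6 of 6 members. Dual-treated mouse 2 was the higher in 4 of 6, the exceptions being *Ass1* and *Ido1*. Control mice had no such order, with mouse 1 highest in 1 member, mouse 2 in 2 and mouse 4 in 3. The 2 dual-treated mice differed most in *Ido1* (2.90 times) and *Odc1* (1.66 times), and least in *Nos2* (1.05 times).

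Among 20 other genes of nitric oxide synthesis, citrulline recycling and arginine supply, 17 were tested. In LPS against control 4 were called higher and 7 lower, and their median log2 change was 0.21 beside -0.01 for all tested genes. That median was -0.06 with scaling by library size only and -0.18 without LPS mice 6 and 7. The arginine carrier genes *Slc7a1* and *Slc7a2* and the exchanger gene *Slc7a6* rose. *Slc7a6* went from 30.05 ± 2.17 CPM in control to 157 ± 15.2 CPM in LPS (SD, n = 3 each), a log2 change of 2.38 (adjusted p = 3.9e-06). *Slc7a1* went from 21.4 ± 1.60 to 77.0 ± 18.9 CPM, a log2 change of 1.85 (adjusted p = 1.5e-05). *Nos1*, the neuronal synthase, had 0, 0 and 2 counts in the control mice and 0, 19 and 63 counts in the LPS group, so all its LPS counts were in mice 6 and 7.

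The genes of the same list that fell in LPS included *Ddah1* and *Ddah2*, whose enzymes clear methylated arginines that block the synthases, and *Nostrin*, a partner of the endothelial synthase. *Ddah2* was at 95.2, 108 and 109 CPM in the control mice, 22.4, 14.0 and 16.4 CPM in the LPS group and 58.8 and 106 CPM in the dual-treatment group. Its log2 change was -2.56 in LPS against control (adjusted p = 1.2e-05) and 2.23 in dual treatment against LPS (adjusted p = 7.0e-05). *Otc*, a urea cycle gene, had 0 counts in all LPS mice, and the list's median with *Otc* at the bound that 3 counts allow was unchanged. Compared with LPS, dual treatment had 9 genes called higher and 4 lower, with a median of 0.64 beside 0.06, and the 4 were *Nos1*, *Slc7a1*, *Slc7a2* and *Slc7a6*. Compared with control it had 4 called higher (*Ddah1*, *Slc7a7*, *Gatm* and *Aldh18a1*) and 0 lower (1 at an unadjusted p under 0.05 and 1 by DESeq2), with a median of 0.46 beside 0.00. Leaving out LPS mice 6 and 7 gave 7 higher and 0 lower there. *Nos3*, the endothelial synthase, was not called in any of the 3 comparisons, at 31.4 ± 4.48, 36.2 ± 10.2 and 47.1 ± 3.21 CPM in control, LPS and dual treatment.

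Beyond *Gch1*, none of 7 genes of tetrahydrobiopterin synthesis and recycling rose in LPS against control, and 3 fell, *Pts* and *Qdpr* among them, with a median log2 change of -0.65 beside -0.01. With scaling by library size only, upper-quartile scaling or no filter on low counts 5 fell. *Pts*, the enzyme after *Gch1* in the route, was at 27.5, 29.2 and 30.4 CPM in the control mice, 17.6, 16.7 and 16.4 CPM in the LPS group and 31.9 and 37.3 CPM in the dual-treatment group. Compared with LPS, 4 of 7 were called higher in dual treatment and 2 lower, with a median of 0.77 beside 0.06. The 2 lower were *Pcbd1* and *Gchfr*, the latter encoding a feedback regulator of GTP cyclohydrolase. That comparison gave 5 higher and 1 lower with library size only, and 3 higher and 1 lower without LPS mice 6 and 7. Compared with control, 0 were called higher (1 at an unadjusted p under 0.05) and *Pcbd1* and *Gchfr* were called lower, with a median of -0.01 beside 0.00.

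Of 14 tested genes of polyamine synthesis and breakdown, 6 were called higher and 5 lower in LPS against control, with a median of 0.09 beside -0.01. With scaling by library size only 4 were higher and 6 lower, and the median was -0.20. *Smox* and *Sat1*, which act in polyamine breakdown, rose together with *Odc1*. *Smox* was at 30.8, 30.4 and 31.3 CPM in the control mice, 137, 114 and 92.9 CPM in the LPS group and 47.7 and 38.9 CPM in the dual-treatment group. *Eif5a*, the gene of the protein that carries the spermidine-derived residue hypusine, rose by 1.17 on the log2 scale (adjusted p = 6.1e-05). *Amd1*, which supplies the other substrate of spermidine synthesis, fell, with a log2 change of -0.79 (adjusted p = 0.00320). Dual treatment differed from LPS in 7 of these genes, 3 called higher and 4 lower, with a median of 0.05 beside 0.06. With scaling by library size only the counts were 7 higher and 3 lower, with a median of 0.38, and without LPS mice 6 and 7 they were 3 higher and 6 lower. Compared with control, *Srm*, spermidine synthase, was the 1 gene called higher in dual treatment (33.3 ± 2.45 against 16.6 ± 1.46 CPM, adjusted p = 0.00158), and *Sms* and *Oaz2* were called lower. By DESeq2, and also without LPS mice 6 and 7, 3 were higher and 2 lower there.

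Of 17 tested genes around itaconate in the citric acid cycle, 9 were not called in LPS against control, 4 were called higher and 4 lower, with a median of 0.11 beside -0.01, and -0.17 with scaling by library size only. Without LPS mice 6 and 7 the counts were 2 higher and 4 lower and the median was -0.03. *Idh1*, the cytosolic isocitrate dehydrogenase, rose by 0.92 on the log2 scale (adjusted p = 0.00134). It was at 63.0, 72.8 and 61.7 CPM in the control mice and 89.0, 128 and 156 CPM in the LPS group, highest in mice 6 and 7, while the mitochondrial *Idh2* had a log2 change of -1.12 (adjusted p = 1.3e-05). *Sdha*, a subunit of the succinate dehydrogenase that itaconate inhibits, was at 244 ± 20.9, 152 ± 5.93 and 202 ± 13.5 CPM in control, LPS and dual treatment. It fell in LPS against control, with a log2 change of -0.68 (adjusted p = 0.000230). Dual treatment against LPS gave 5 higher and 3 lower with a median of 0.02 beside 0.06. These counts depended on the setting, with 6 higher and 0 lower under library size only (median 0.33), 4 higher and 5 lower by DESeq2, and 4 higher and 1 lower without LPS mice 6 and 7. Dual treatment against control gave 1 higher (*Sdhc*) and 0 lower (2 at an unadjusted p under 0.05) with a median of 0.09 beside 0.00.

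On the tryptophan side, 9 of 13 genes were tested, and 2 were called higher and 3 lower in LPS against control, with a median of 0.35 beside -0.01 that became -0.53 without LPS mice 6 and 7. *Wars1*, the tryptophanyl-tRNA synthetase and a known interferon-induced gene, had its highest values in the LPS group, as *Ido1* did. It was at 169, 153 and 177 CPM in the control mice, 1445, 1028 and 1061 CPM in the LPS group and 159 and 175 CPM in the dual-treatment group. Its log2 change was 2.83 in LPS against control (adjusted p = 9.7e-07) and -2.82 in dual treatment against LPS (adjusted p = 5.9e-06). *Kmo*, the enzyme that turns kynurenine toward quinolinate, fell in LPS against control (log2 change -2.55, adjusted p = 0.000729). It also fell in dual treatment against control (log2 change -2.01, adjusted p = 0.0221), as the 1 gene called there, with 0 higher (1 at an unadjusted p under 0.05) and a median of -0.07 beside 0.00. Between dual treatment and LPS 2 were higher and 2 lower, with a median of 0.13 beside 0.06 that became 1.02 without LPS mice 6 and 7 and 0.44 with library size only.

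Of 18 genes of signals and factors known to act on the members, 14 were called higher and 3 lower in LPS against control, with a median log2 change of 1.31 beside -0.01. *Hif1a*, the oxygen-regulated factor, was at 41.1, 44.5 and 46.4 CPM in the control mice, 448, 336 and 329 CPM in the LPS group and 90.2 and 51.3 CPM in the dual-treatment group. *Irf1*, an interferon-induced factor that acts on *Nos2*, was at 124, 140.4 and 146 CPM in the control mice, 1122, 715 and 802 CPM in the LPS group and 109.8 and 119.6 CPM in the dual-treatment group. Dual treatment against LPS gave 4 higher and 12 lower, with a median of -1.11 beside 0.06, and dual treatment against control gave 3 higher, *Myd88* and *Il4ra* among them, and 0 lower, with a median of 0.30 beside 0.00. By DESeq2 6 were higher and 0 lower in the latter comparison. *Ifng*, the gene of interferon gamma, had at most 3 counts in any control mouse and a mean of 2.78 ± 2.56 CPM in the LPS group (SD, n = 3) against 0.11 ± 0.155 CPM in the dual-treatment group (SD, n = 2).

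Interleukin 4, a textbook signal of alternatively activated macrophages, acts through *Stat6*. *Il4ra*, the receptor subunit, was at 139, 139 and 164 CPM in the control mice, 779, 617 and 603 CPM in the LPS group and 247 and 199 CPM in the dual-treatment group. *Stat6* was at 157, 164 and 167 CPM in the control mice, 75.8, 77.6 and 75.8 CPM in the LPS group and 166 and 169 CPM in the dual-treatment group. *Stat6* fell in LPS against control (log2 change -1.09, adjusted p = 3.9e-06) and rose in dual treatment against LPS (log2 change 1.13, adjusted p = 1.2e-05), while *Il4ra* did the opposite (2.18, adjusted p = 2.3e-06, and -1.58, adjusted p = 5.2e-05).

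Genes of alternatively activated macrophages did not move as 1 group. Of 9, in dual treatment against LPS 2 were called higher (*Cd163* and *Clec10a*) and 3 lower (*Retnla*, *Ccl17* and *Socs2*), with a median of 0.36 beside 0.06. With scaling by library size only 4 were higher and 3 lower, with a median of 0.68. *Cd163*, the hemoglobin scavenger receptor, was at 9.0, 7.98 and 6.12 CPM in the control mice, 2.91, 4.62 and 5.25 CPM in the LPS group and 39.1 and 21.5 CPM in the dual-treatment group. *Retnla*, a secreted resistin-like protein, was at 40.7, 58.1 and 44.4 CPM in the control mice, 614, 563 and 439.8 CPM in the LPS group and 44.5 and 26.2 CPM in the dual-treatment group. *Mrc1* and *Chil3* were not called in any comparison. In LPS against control 3 were called higher and 3 lower, with a median of 0.07 beside -0.01, -0.23 with scaling by library size only and 0.33 without LPS mice 6 and 7. Compared with control, 2 were called higher and 2 lower in dual treatment, with a median of 0.37 beside 0.00.

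Monocyte markers, which can mark the cells that become macrophages, were mixed. Their summed level was 1217, 1104 and 1369 CPM in the control mice, 998, 666 and 580.3 CPM in the LPS group, and 1235 and 1759 CPM in the dual-treatment group. The most abundant over all mice together was *Ace*, which is also an endothelial gene and held 65.2% of the pooled level. Its share differed between mice, with a sum in LPS mouse 1 of 998 CPM with *Ace* and 896 CPM without it. No marker was at 0 in every library. Without *Ace* the order of the groups changed, with 113, 96.4 and 100.5 CPM in the control mice, 896, 606 and 489 CPM in the LPS group, and 313 and 490.2 CPM in the dual-treatment group. Of 7 markers, 4 were called higher and 3 lower in LPS against control, and 4 higher and 0 lower in dual treatment against control. Dual treatment against LPS gave 4 higher and 1 lower. The medians were 1.40, 1.07 and 3.05 in that order, beside -0.01, 0.00 and 0.06 for all tested genes. With LPS mice 6 and 7 left out the counts were 3 higher and 2 lower, 5 higher and 0 lower, and 3 higher and 1 lower, and the medians 0.88, 1.07 and 3.14. *Ly6c2*, which marks inflammatory monocytes, was at 5.77, 6.19 and 8.83 CPM in the control mice, 78.6, 85.9 and 50.9 CPM in the LPS group and 80.4 and 79.3 CPM in the dual-treatment group.

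The genes whose log2 CPM was most like that of each member over the 8 libraries were taken from 11741 protein-coding genes with a mean of at least 5 CPM. Pearson's r is given as a description with no test, since 8 libraries in 3 groups leave many genes with a high r. It compares the pattern over the mice and not the level or the size of the change. *Hnrnph2*, listed below for *Ido1*, was at 81.9, 84.0 and 77.4 CPM in the control mice and 152, 136 and 132 CPM in the LPS group, a far smaller rise. For *Nos2* they were *Farsa* (r = 0.997) and *Nlrc5* (0.995), and for *Gch1* they were *Mybbp1a* and *Rtca* (both 0.999). For *Ass1* they were *Bola3* (0.991) and *Tmub2* (0.990). *Odc1* was nearest to *Hif1a* (0.999) and *Whamm* (0.998), and *Ido1* to *Hnrnph2* (0.997) and *Calhm6* (0.996). *Acod1* was nearest to *Myo5a* (0.996) and to *Ngp* (0.994), the latter a neutrophil granule gene and 1 of the 13 neutrophil markers.

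Sequence around annotated starts was compared because 6 of 6 members rose together in LPS. Of the 6 members, 4 were in the RefSeq promoter table used (*Gch1*, *Acod1*, *Ass1* and *Odc1*), which holds 32851 promoters of GRCm38.p6 from 250 bases before to 50 after each start. Both strands were searched for an NF-κB site, for the interferon-response letters GAAANNGAA, the STAT letters TTCNNNGAA, the AP-1 letters TGANTCA, the C/EBP letters TTGCNNAA, the hypoxia-response core ACGTG and the Myc E-box CACGTG, which contains ACGTG. The NF-κB site was in *Gch1*, and 4.51% of all promoters hold it. ACGTG was in *Ass1* and *Acod1*, and 19.6% of all promoters hold it. CACGTG was in *Ass1*, and 7.15% of all promoters hold it. GAAANNGAA (8.56% of promoters), TTCNNNGAA (8.30%), TGANTCA (7.81%) and TTGCNNAA (10.8%) were in 0 of the 4, and *Odc1* held none of the listed motifs. The 30 bases around each match follow, 5′ to 3′ on the gene's strand at GRCm39 positions where the same bases were found, with the matched letters in capitals. They lie at chr14:47426871-47426900 (minus strand) for *Gch1*, chr14:103284418-103284447 (plus strand) for *Acod1* and chr2:31360232-31360261 (plus strand) for *Ass1*. In *Acod1* ACGTG reads on the opposite strand. By the GRCm39 annotation, all 30 bases of each window lie inside an exon, 15 bases past the annotated gene start in *Gch1*, 5 in *Acod1* and 8051 in *Ass1*. Of the 250 upstream bases, 45 in *Gch1*, 35 in *Acod1*, 128 in *Ass1* and 248 in *Odc1* lie inside an annotated exon.
Gch1: cataaaaagagaggcgcggcGGGGCTCCCC
Acod1: tgtataaaggcaCACGTccactaaaggccc
Ass1: ctcgcgcccgtcccCACGTGtcccaggttc
A match of letters is a description of the window and not a measure of binding.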

How the data were processed

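Lung RNA was counted per gene in 8 mice. According to the submitters' processing notes, the authors checked reads with FastQC 0.11.9, trimmed them with Trim Galore, aligned them to GRCm39 with HISAT2 2.2.1 and counted them with featureCounts 2.0.1. They deposited raw counts for each mouse. The annotation release, strand setting and handling of multimapped reads are not given in the sources used here. Of 55416 identifiers, 54749 matched GENCODE M39, and the 667 others held 0.0533% of counts. In R 4.3.3, edgeR 4.0.16 filtered low counts (filterByExpr), scaled libraries (TMM) and fitted its quasi-likelihood test to all 8 libraries in 1 model (3 control, 3 LPS, 2 dual-treatment; 5 residual degrees of freedom). Benjamini-Hochberg adjustment covered 18560 genes. The procedure was tested on simulated data. Alternatives were DESeq2 1.42.0, other scalings, filters and call rules, fits of only the groups compared, and leaving out mice.

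The members and the gene lists were chosen with earlier results of these data known. Of the planned members, 2 are not reported here and are left out of all member counts. Any gene of a list could be named with its values. Examples from a pathway list were at most the 3 called genes of largest change per direction with at least 1 CPM in the higher group, and other list genes were named for their role or, in counts of up to 4, to complete a count. For each member the 2 genes of highest Pearson r of log2(CPM + 1) were named. Group values are mean ± SD. The marker *Lor* matched no identifier. Promoters came from RefSeq.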

Additional observations from a re-analysis of the deposited data

How the results depend on the processing

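Each member was tested in 3 comparisons under 16 other settings, and no called direction reversed. The median of all tested genes was -0.29 in LPS against control and 0.38 in dual treatment against LPS with scaling by library size only, and -0.10 and 0.14 with upper-quartile scaling, so changes of that size depend on the scaling. Calling genes by unadjusted p under 0.05 and a fold over 2 gave 7450 in LPS against control, 1944 in dual treatment against control and 6554 in dual treatment against LPS. The same fold with an adjusted p under 0.05 gave 7279, 1327 and 6264. Under both of these rules 5 members were called higher in LPS against control (*Ass1* lost), 2 higher in dual treatment against control (*Gch1* lost) and 4 lower in dual treatment against LPS (*Ass1* lost). With each mouse left out in turn, the genes called ranged from 11004 to 12709 in LPS against control, from 1220 to 3601 in dual treatment against control and from 8673 to 10626 in dual treatment against LPS. The 1220 were without dual-treated mouse 2. Members called higher in dual treatment against control then ranged from 2 to 4, and members called lower in dual treatment against LPS from 4 to 5. At an adjusted p under 0.05 with no fold limit, calls of single members changed for *Ass1* in dual treatment against LPS (lost in 3 settings), *Acod1* in the same comparison (gained in 3), *Gch1* in dual treatment against control (lost in 1) and *Odc1* in that comparison (gained in 2). The cause was not tested.

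With 1 dual-treated mouse left out, or LPS mice 6 and 7, the lone mouse of the group is assumed to vary like the other groups. No paired analysis was possible, because each mouse received 1 treatment and equal mouse numbers in different groups are different mice. With 2 dual-treated mice, changes against that group can be missed, and a missed threshold does not show equal levels. In simulated counts with a log2 change of 2, 73% of the changed genes were called in dual treatment against control. In LPS against control 77.9% were called. Low counts limit *Ido1* in control and dual-treated mice (10 to 30 counts). Levels of genes that overlap others depend on an unknown strand setting.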

Other observations

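Lists of other lung cell types were measured in the same libraries, and no gene of these lists but 1 was at 0 in every library. The leading gene of a list and its share of the sum were taken over all mice together, and shares differed between mice. Of 11 endothelial genes, 0 were called higher and 7 lower in LPS against control, with a median log2 change of -1.52 beside -0.01 for all tested genes. In dual treatment against LPS 6 were called higher and 0 lower (1 at an unadjusted p under 0.05 and 1 by DESeq2). In dual treatment against control 1 was called higher and 2 lower (1 higher and 5 lower by DESeq2). Their summed level was 4329, 4504 and 4767 CPM in the control mice, 2714, 2224 and 2119 CPM in the LPS group, and 3917 and 4201 CPM in the dual-treatment group, with *Cdh5* most abundant. Of 11 alveolar epithelial genes, led by the surfactant gene *Sftpc*, 1 was called higher and 7 lower in LPS against control, 4 higher and 2 lower in dual treatment against LPS, and 0 higher and 2 lower in dual treatment against control. Their sum was 39158, 32947 and 40715 CPM in the control mice, 28804, 20460.4 and 16085 CPM in the LPS group, and 19212 and 30853 CPM in the dual-treatment group. *Sftpc* held 57.3% of it, and without *Sftpc* the sum was 14942, 13379.6 and 16179 CPM in control, 12238, 9407 and 7763 CPM in LPS, and 10685 and 12964 CPM in dual treatment.

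Of 7 airway genes, led by the club cell gene *Scgb1a1*, 3 were called higher and 2 lower in LPS against control, 1 higher and 4 lower in dual treatment against LPS, and 0 higher and 1 lower in dual treatment against control. Their sum was 31018, 39375 and 36679 CPM in the control mice, 67617, 57204 and 55819 CPM in the LPS group, and 24073 and 26790 CPM in the dual-treatment group. *Scgb1a1* held 95.4% of it. The other 6 airway genes summed to 1604, 2538 and 2246 CPM in control, 2303, 1809.7 and 2093 CPM in LPS, and 1398 and 1694 CPM in dual treatment, so the higher sum in LPS lay in *Scgb1a1*. Of 10 fibroblast and smooth muscle genes, led by *Inmt*, the counts in those comparisons were 1 higher and 4 lower, 4 higher and 4 lower, and 0 higher (1 at an unadjusted p under 0.05 and 1 by DESeq2) and 3 lower. Their sum was 4003, 4175 and 4398 CPM in the control mice, 1038, 1096 and 1038 CPM in the LPS group, and 2506 and 3098 CPM in the dual-treatment group. Most of the lower sum in LPS lay in *Inmt*, with 61.2% of the level over all mice. Without it the mice had 1068, 1217 and 1117 CPM in control, 860.4, 935 and 893 CPM in LPS, and 1259 and 932 CPM in dual treatment.

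Of 9 lymphocyte genes, led by *Gzma*, 2 were called higher and 2 lower in LPS against control, 3 higher and 2 lower in dual treatment against LPS, and 1 higher and 0 lower (2 at an unadjusted p under 0.05 and 1 by DESeq2) in dual treatment against control. Their sum was 40.1, 40.9 and 40.9 CPM in the control mice, 58.9, 54.1 and 27.9 CPM in the LPS group, and 82.2 and 82.9 CPM in the dual-treatment group. *Gzma* held 38.0% of it. Without *Gzma* every LPS mouse lay below the control mice, at 27.9, 28.5 and 16.7 CPM against 34.7, 36.2 and 34.4 CPM, and the dual-treated mice were at 56.0 and 30.8 CPM. Of 7 dendritic cell genes, led by *Zbtb46*, the counts were 1 higher and 5 lower, 2 higher and 3 lower, and 0 higher and 4 lower. Their sum was 131, 124 and 125 CPM in the control mice, 106, 72.8 and 84.5 CPM in the LPS group, and 83.8 and 72.8 CPM in the dual-treatment group. Without *Zbtb46* (33.7%) LPS and control mice overlapped, at 88.7, 60.8 and 70.9 CPM against 81.8, 75.1 and 78.8 CPM, and the dual-treated mice were at 39.9 and 33.8 CPM. Of 6 erythroid genes, led by the hemoglobin gene *Hbb-bs*, 1 was called higher and 0 lower in LPS against control, 0 higher and 6 lower in dual treatment against LPS, and 0 higher and 5 lower in dual treatment against control. Their sum was 1737, 3917 and 2788 CPM in the control mice, 3304, 1894 and 1481 CPM in the LPS group, and 428 and 382 CPM in the dual-treatment group. The summed level of 7 liver genes was at most 1.48 CPM in any mouse, and *Serpina1a* was the 1 gene at 0 in every library. The most abundant, *Alb*, which encodes albumin, had a mean of 0.0227 CPM in the dual-treatment group. *Alb*, the 1 liver gene tested, was called lower in dual treatment against LPS and against control and was not called in LPS against control.

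Several of these counts changed in the fit without LPS mice 6 and 7. In LPS against control they were then 1 higher and 7 lower for endothelial genes, 1 and 4 for alveolar, 2 and 0 for airway, 0 and 3 for fibroblast and smooth muscle, 2 and 1 for lymphocyte and 1 and 3 for dendritic cell genes. In dual treatment against LPS they were, in the same order, 5 and 2, 4 and 2, 0 and 4, 3 and 2, 1 and 2, and 2 and 4. The median log2 change of alveolar genes went from -0.91 to -0.45 in LPS against control and from 0.37 to -0.02 in dual treatment against LPS. Compared with control, dual treatment then gave 1 higher and 4 lower, 0 and 3, 0 and 3, 0 and 4, 2 and 1, and 0 and 4. Erythroid counts were 1 and 0, 0 and 6, and 0 and 5 in the 3 comparisons, the same as with all 8 libraries.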
